A study of Mus musculus with 8 samples.

Results

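*En1* and *Lmx1b*, both members of the dorsoventral patterning system of the limb, were followed as 2 of the 28001 features counted by single-cell RNA-sequencing in 8 libraries of mouse embryonic forelimb cells. Cells with at least 3000 unique molecular identifiers (UMIs, each counting 1 captured RNA molecule) and at most 10% mitochondrial UMIs were used, which were 53085 of 57469 barcodes. All embryos were C57BL/6J. The 6 sorted libraries, of days E11.5, E12.5 and E13.5, of E14.5, and of the proximal and the distal segment at E16.5, held tdTomato+ cells of Hic1CreERT2/CreERT2;Rosa26LSLtdTomato/tdTomato embryos, in which tamoxifen, given to the dam by gavage (7.5 mg at embryonic day 10), switches on the reporter in cells that then express *Hic1*, a transcriptional repressor gene, and in their descendants. The proximal E16.5 segment ran from the distal stylopod to the proximal zeugopod with the elbow, and the distal one held the distal zeugopod and the autopod. The libraries whole 1 and whole 2 were labelled as holding both tdTomato+ and tdTomato- cells of E11.5 forelimbs, and the labels give the same tamoxifen treatment for them. Per the methods of the study, forelimbs of several embryos were pooled and cells with surface markers of blood and endothelium were removed in the sort. Each sorted library was the only one of its group, so apart from whole 1 and whole 2 no value had a replicate, and intervals below are 95% intervals that cover counting error only.

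The limb bud is patterned from its back to its palm side by signals of the overlying ectoderm. The dorsal ectoderm secretes Wnt7a, which switches on *Lmx1b*, a LIM-homeodomain transcription factor gene, in the mesenchyme beneath it. In the ventral ectoderm BMP signalling maintains *En1*, a homeodomain repressor gene, which keeps *Wnt7a* off there. *En1* is also known from dermomyotome-derived and trunk dermal cells, where it marks a lineage of skin fibroblasts. *Lmx1b* is thus best known as a mesenchymal gene and *En1* as an ectodermal gene of the early limb, while the sorted libraries were meant to hold mesenchymal cells.

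*En1* (ENSMUSG00000058665) lies at chr1:120602418-120607992 on the + strand of GRCm38 and its annotated transcript has 2 exons. *Lmx1b* (ENSMUSG00000038765) lies at chr2:33560965-33640511 on the - strand, and its 2 coding transcripts have 8 exons each. A long non-coding gene, C130021I20Rik (chr2:33641193-33646354, + strand, 3 exons), runs away from *Lmx1b* in the other direction. By the RefSeq start of *Lmx1b*, position 33641098, only 94 bases separate the start sites of this divergent pair. The 250 bases before each RefSeq start are shown because the RNA of C130021I20Rik turned out to be the closest companion of *Lmx1b* in these cells. They are written 5′ to 3′ on the strand of the gene from RefSeq promoters of GRCm38.p6, and the capitals of the first mark the 94 bases between the start sites of *Lmx1b* and C130021I20Rik.
Lmx1b promoter (chr2:33641099-33641348, - strand): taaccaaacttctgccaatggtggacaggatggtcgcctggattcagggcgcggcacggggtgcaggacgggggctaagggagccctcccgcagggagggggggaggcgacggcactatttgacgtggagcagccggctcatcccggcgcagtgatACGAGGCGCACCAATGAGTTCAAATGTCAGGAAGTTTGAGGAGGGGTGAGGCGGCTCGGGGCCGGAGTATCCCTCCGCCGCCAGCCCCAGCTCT
En1 promoter (chr1:120602237-120602486, + strand): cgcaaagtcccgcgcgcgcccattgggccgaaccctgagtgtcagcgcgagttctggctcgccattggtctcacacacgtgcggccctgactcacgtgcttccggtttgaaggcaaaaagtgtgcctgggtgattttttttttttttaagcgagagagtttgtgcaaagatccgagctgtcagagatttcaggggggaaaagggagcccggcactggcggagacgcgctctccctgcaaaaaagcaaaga
Both sequences hold 19 CpG dinucleotides, more than 80.3% of the 32851 RefSeq promoters of this length, and their GC content is 65.2% for *Lmx1b* and 56.0% for *En1*. The letters CCAAT occur in the *Lmx1b* promoter from -236 to -232 and from -84 to -80, counted from the start site, and the latter copy lies in the capitals between the divergent starts. In the *En1* promoter they occur on the opposite strand from -229 to -225 and from -187 to -183. Searched on both strands of the whole window of the table, which runs a little past the start site, CCAAT is found in 37.4% of all promoters. The letters TAATTA, a core that many homeodomain factors bind, are in neither sequence and in 5.29% of all. These matches are a description of the letters only.

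The filtered libraries held between 31500092 and 234893903 UMIs, with a median of 8992, 8683, 6788, 14333, 18473 and 17275 UMIs per cell in the sorted libraries in the order given above and 8850.5 and 8593.5 in whole 1 and whole 2. Per the methods, the v2 reagent kit was used up to E13.5 and the v3 kit afterwards, so stage and kit cannot be told apart across that step. The enzymes also changed, from Dispase at E11.5 and E12.5 to Collagenase A, Pronase and DNase from E13.5 on. Stage and enzymes likewise cannot be told apart between E12.5 and E13.5. Pairs of libraries shared between 0 and 48 barcodes. The reporter was at 454 CPM (the usual depth-scaled count, in which the UMIs of a gene are divided by all UMIs of a library or group of cells) in the E11.5 sorted library, the second lowest of the sorted libraries (427 to 1341), and at 3.88 and 4.21 CPM in whole 1 and whole 2, where no cell held 3 or more tdTomato UMIs. Cells with 3 or more made up 62.3% of the sorted E11.5 library. *Hic1* itself was at 0.702 and 0.741 CPM in whole 1 and whole 2, against 22.0 to 38.0 CPM in the sorted libraries. Per the methods, whole 1 and whole 2 came from undivided limbs that carried the *Hic1* CreERT2 and reporter alleles, with all cells negative for the lineage markers taken, and 1 modified genome is named for the alignment of all libraries. Their file headers name no version of Cell Ranger. The study also reports, by flow cytometry, that tdTomato+ cells were a rare part of the forelimb mesenchyme at E11.5, so undivided limbs would hold few of them. Whether this rarity, the genotype or the counting reference gave the low reporter and *Hic1* values was not tested. A difference in genotype or reference cannot be told apart from the sort in the contrast of sorted with whole limb cells.

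*En1* was low in the early sorted libraries and higher in the late ones. E11.5 had 11.05 CPM (9.92 to 12.3), E12.5 had 7.33 (6.55 to 8.17) and E13.5 had 5.82 (5.14 to 6.56). E14.5 had 19.6 CPM (18.9 to 20.4), while the E16.5 segments had 20.3 (19.7 to 20.9) proximally and 21.9 (21.2 to 22.7) distally. Whole 1 had 4.54 CPM (3.98 to 5.16) and whole 2 had 4.23 (3.69 to 4.83). In the order of these levels over all filtered cells, E12.5 and E13.5, E13.5 and whole 1, whole 1 and whole 2, and E14.5 and E16.5 proximal were neighbours whose counting intervals overlapped. With each cell thinned at random to 3000 UMIs, so that depth was equal, the share of cells with an *En1* UMI was 2.31%, 1.76%, 1.49%, 4.34%, 5.55% and 5.02% in the sorted libraries in order of stage and segment, and 1.12% and 1.16% in whole 1 and whole 2. At full depth the shares were 4.55%, 4.16%, 2.68%, 13.1%, 22.2% and 15.3%, and 2.16% and 1.97%.

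*Lmx1b* went from its highest level at E11.5 to its lowest at E16.5 proximal. Like *En1* it fell from E11.5 to E13.5, the libraries of the v2 kit, within which the dissociation enzymes changed after E12.5. At the step to E14.5, where *En1* was higher, *Lmx1b* kept its level. E11.5 had 34.0 CPM (32.0 to 36.1), E12.5 had 16.5 (15.4 to 17.8) and E13.5 had 11.3 (10.3 to 12.3). E14.5 had 11.5 CPM (10.9 to 12.1), while the E16.5 segments had 3.69 (3.45 to 3.95) proximally and 8.64 (8.19 to 9.11) distally. The whole limb libraries had 14.6 CPM (13.6 to 15.7) and 15.3 (14.3 to 16.5), whose intervals overlapped each other and that of E12.5. E13.5 and E14.5 could likewise not be ordered. The shares of thinned cells with an *Lmx1b* UMI were 8.78%, 3.95%, 2.92%, 3.33%, 1.15% and 2.63%, and 3.70% and 4.47% in whole 1 and whole 2. At full depth they were 24.0%, 12.9%, 7.33%, 14.1%, 6.97% and 11.9%, and 11.5% and 11.6%. The ratio of *Lmx1b* to *En1* UMIs was 3.08, 2.26 and 1.94 in the sorted libraries from E11.5 to E13.5, 3.21 and 3.63 in whole 1 and whole 2, and 0.586, 0.182 and 0.394 in the E14.5 library and in the proximal and distal segments. This ratio thus changed sides of 1 between E13.5 and E14.5, the step at which the kit also changed.

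**Figure D1:**
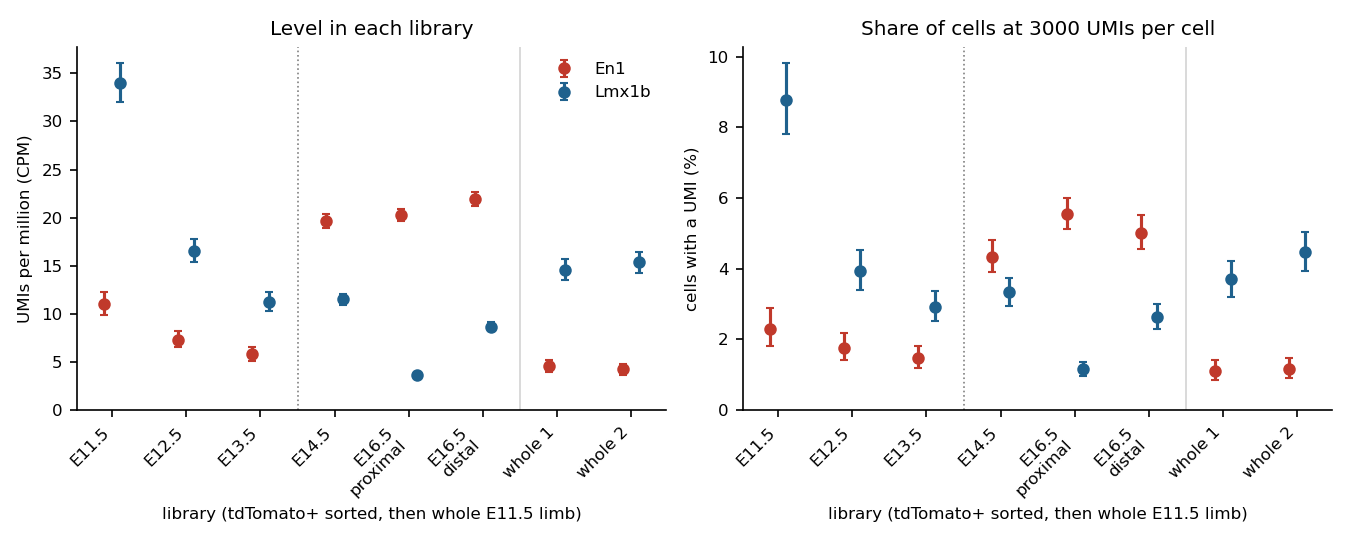
*En1* (red) and *Lmx1b* (blue) in each library, as CPM (left) and as the share of cells with a UMI when every cell is thinned to 3000 UMIs (right). Bars are 95% counting intervals, the dotted line marks the change of reagent kit and the grey line sets off whole 1 and whole 2. *Lmx1b* is at 34.0 CPM in the E11.5 sort and 3.69 at E16.5 proximal, while *En1* is at 19.6 to 21.9 CPM in the 3 libraries after the kit change.

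Cells with *En1* held more of its molecules than cells with *Lmx1b* did of theirs in each of the 8 libraries, from 1.61 to 2.71 *En1* UMIs and from 1.12 to 1.41 *Lmx1b* UMIs per cell with a UMI at full depth. *En1* was found in fewer cells than *Lmx1b* up to E13.5 and in the whole limb libraries, and in more at E16.5, with 2461 against 774 proximal and 1290 against 1003 distal cells at full depth. The order for E14.5 depended on depth, with 1098 against 1185 cells at full depth and 364 against 279 after thinning. At E11.5, 18 of 3165 sorted cells had 5 or more *En1* UMIs and together held 46.3% of them, with up to 17 in a cell, whereas 5 cells had as many *Lmx1b* UMIs and held 2.80%. At least 5 *En1* UMIs were counted in 139 cells of E14.5 and in 159 proximal and 198 distal cells of E16.5, where the richest cell of each library held 25. The corresponding numbers for *Lmx1b* were 6, 0 and 5 cells. Of the *En1* UMIs of whole 1 and whole 2, 73.0% and 74.7% came from the 1% of cells richest in them, against 17.9% and 16.9% of those of *Lmx1b*. The same quantity for *En1* in the sorted libraries was 59.2% for E11.5 and 61.4% for E13.5, against 27.9% for E14.5 and 16.4% for the proximal segment of E16.5, where the 1% of cells richest in *Lmx1b* held 23.6% of its UMIs. This quantity depends on how many cells hold a UMI of the gene. In whole 1 and whole 2 these were 118 and 112 cells for *En1* and 627 and 659 for *Lmx1b*. No difference in concentration is therefore read from it.

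The comparison of sorted with whole limb cells at E11.5 bears on whether the *Hic1* lineage stands apart from other limb bud mesenchyme in its dorsoventral genes. It was the only contrast with 2 libraries in a group. UMIs were summed over mesenchymal cells (3159 sorted, 5113 of whole 1 and 5344 of whole 2) and compared with edgeR's quasi-likelihood test across all genes, which had 1 residual degree of freedom so that the spread of the single sorted library was assumed to equal that of whole 1 and whole 2. After normalisation *En1* was at 4.30 and 4.01 CPM in whole 1 and whole 2 and at 10.2 CPM in the sorted cells. *En1* was higher in sorted cells by 1.30 ± 0.16 (SE) on the log2 scale, with an edgeR adjusted p of 3.28e-14. *Lmx1b* was at 16.3 and 17.4 CPM in whole 1 and whole 2 and at 31.5 CPM in the sorted cells. *Lmx1b* was higher by 0.90 ± 0.12 (SE), with an edgeR adjusted p of 4.43e-12. In this test 8023 of 15121 genes were called at an adjusted p of 0.05 (53.1%), 4037 higher (26.7%) and 3986 lower (26.4%). Whole 1 and whole 2 differed from each other beyond sampling noise (chi-square of 15.6 per gene over 14331 genes) and were counted as 2 samples. Whether they came from separate embryos is not stated in the labels, so the p-values may measure technical spread.

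*En1* was nearly undetected in the distal mesenchyme of the whole limb, whereas *Lmx1b* was present there. The distal mesenchyme-like cells, named by a list that holds *Lhx9*, *Lhx2* and *Hoxd13*, had *En1* at 0.121 CPM (0.0147 to 0.437) in whole 1 and 0.264 (0.0719 to 0.675) in whole 2, and these were 1635 and 1501 cells. The same cells held *Lmx1b* at 13.98 CPM (12.2 to 15.9) and 12.7 (10.99 to 14.7). Over all clusters that met no marker list, which held 2702 and 2950 cells, *En1* was at 6.76 and 5.99 CPM and *Lmx1b* at 18.2 and 19.4 CPM, against 11.05 and 34.0 CPM in the sorted E11.5 library. Single clusters among them were higher than that pooled level. *En1* was at 32.8 and 30.4 CPM in cluster 5, above the sorted library. *Lmx1b* was at 34.1 and 30.2 CPM in cluster 10, close to the sorted library, and no order was read from these values. *Lhx2* and *Lhx9*, LIM-homeodomain genes of the distal limb, were lower in sorted cells by 3.88 and 3.84 on the log2 scale, so position along the limb differed together with the sort and its part in the result was not tested.

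The 6 genes linked to *Lmx1b* in limb mesenchyme were called higher in 5 cases in the sorted library (26.7% of all genes were), with a median log2 fold change of 1.959 against 0.01 over all genes tested. They include *Kera* (3.004) and *Lum* (1.69), genes of small leucine-rich proteoglycans of tendon and cornea, *Dcn* (3.79), a related matrix gene, *Ntn1* (2.23), a guidance cue, and *Gdf5* (1.48), a joint morphogen. *Epha4*, a guidance receptor gene, had a log2 fold change of 0.06 and was not called. In the clustering of the E11.5 libraries, clusters 0 and 2, with 99.6% and 99.8% sorted cells, were named tenocyte-like by a list that holds *Kera*. *Dcn* was among the leading genes of both, so cell class differed together with this list and its part was not tested. Of 9 genes of the Wnt response, 8 were called lower (26.4% of all genes were) and *Wif1* (0.54), a secreted Wnt inhibitor, was called higher. The lower ones include *Axin2* (-2.04) and *Nkd1* (-1.68), feedback inhibitors of the pathway, and *Lef1* (-1.91), one of its nuclear effectors. Of 8 receptor genes 2 were called lower, the BMP receptors *Bmpr1b* (-1.22) and *Bmpr2* (-0.29), and 6 were not called, so their share was close to that of all genes called lower. Among the ligands of the ectoderm *Bmp4* (0.81), *Bmp7* (0.36) and *Fgf8* (1.78) were called higher and *Bmp2* (-0.96) lower. *Wnt7a* was too low to be tested, at 0.032 CPM in the sorted library and 0.019 and 0.058 CPM in whole 1 and whole 2. Of the LIM and Engrailed relatives and cofactors, 5 of 6 tested were called lower, among them the cofactor gene *Ldb2* (-0.31), while *Ldb1* (0.17) was not called and *En2* and *Lmx1a* were too low. Of the genes of the early dermis 4 were called higher (*Twist2*, *Lrig1*, *Dlk1* and *Pdgfra*), *Twist1* and *Crabp1* lower, and *Dpp4* was not tested.

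The few ectodermal cells of the whole limb libraries held *En1* at a high level. Epithelial-like clusters, marked by *Krt5*, *Krt14* and *Trp63*, had 16 cells in whole 1 and 21 in whole 2. At full depth an *En1* UMI was found in 9 of them in whole 1 (56.3%, exact binomial interval 29.9 to 80.2) and in 9 in whole 2 (42.9%, 21.8 to 66.0), at 209.5 and 182 CPM. *Wnt7a* UMIs were found in 0 of 16, which by a limit of 3 counts allows a share of up to 18.75%, and in 2 of 21 (9.52%, 1.17 to 30.4), and no cell held both *En1* and *Wnt7a*. *Fgf8*, the signal of the apical ridge, was found in 4 and 6 of the epithelial-like cells of whole 1 and whole 2. Each whole limb library had 1 epithelial-like cell with an *Lmx1b* UMI. No epithelial-like cells were found in the sorted libraries from E11.5 to E13.5.

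Clusters were made without *En1* and *Lmx1b* and were numbered separately for the E11.5 libraries, the time course of sorted cells and the E16.5 segments. Among mesenchymal clusters of the whole limb, *En1* and *Lmx1b* were highest in different ones. Cluster 5, whose leading genes include *Hgf*, *Fgf18*, *Sostdc1* and *Wif1*, had *En1* in 8.14% of thinned cells of whole 1 (5.28 to 11.9) and 6.07% of those of whole 2 (3.69 to 9.32), at 32.8 and 30.4 CPM. Its *Lmx1b* shares were 2.03% and 3.51%. Cluster 10, led by *Lum*, *Calb2* and *Kera*, had *Lmx1b* in 8.64% (4.81 to 14.1) and 12.4% (8.17 to 17.7) of its cells, with *En1* in 0 of 162 and in 1.98% of thinned cells. By a limit of 3 counts the zero allows up to 1.85% at the thinned depth, and at full depth 2.47% of the same cells of whole 1 had an *En1* UMI. Myogenic-like cells, which are not known to use *Lmx1b*, gave 0% and 0.341% for *Lmx1b* (316 and 293 cells, median depths of 12727 and 11947 UMIs), below every other cluster of 60 or more cells. By the limit of 3 counts the zero allows a share of up to 0.949%.

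In the time course, at E11.5, the 2 early mesenchymal progenitor-like clusters had their shares of both genes in opposite orders, although the *En1* intervals just overlapped. Cluster 1, led by *Dusp6* and *Hmga2*, had *En1* in 3.48% of 976 thinned cells (2.42 to 4.83) and *Lmx1b* in 5.64% (4.27 to 7.27). Cluster 2, led by *Egr4*, *Sall3* and *Dll3*, had *En1* in 1.56% of 836 cells (0.831 to 2.64) and *Lmx1b* in 11.5% (9.40 to 13.8). The mitotic-like cluster had *En1* in 1.99% and *Lmx1b* in 9.65% of 1306 cells. At E12.5 the same clusters 1 and 2 had *Lmx1b* in 1.82% and 4.99% of cells, while their *En1* shares of 1.26% and 1.72% had overlapping intervals. Cluster 7, led by *Stmn2* and *Fam159a*, had *En1* in 11.1% of its 72 cells at E12.5 (4.92 to 20.7) and in 0.553% of its 1085 cells at E13.5 (0.203 to 1.20). At E13.5 *Lmx1b* was found in 5.61% and 5.16% of clusters 3 and 4, which met no marker list and had *Pthlh* and *Gdf5*, and *Prox1* and *Grem1*, among their leading genes, and in 1.36% of perichondrial-like cells. These 3 sorted libraries held no cell type that should lack the genes, so the share that free RNA gives could not be measured in them.

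From E14.5 on, the share of cells with *En1* was highest in dermal fibroblast-like cells among the classes of 100 or more cells. These were named by *Col7a1*, *Rspo1*, *Lef1* and other markers that do not include *En1*, although the study itself counts *En1* among its genes of dermal fibroblasts. At E14.5 they had *En1* in 14.6% of 1057 thinned cells (12.5 to 16.8), at 63.3 CPM, and held 45.8% of the *En1* UMIs of the library with 12.6% of its cells. Perichondrial-like cells, named by *Runx2*, *Dlx5* and *Alpl* among others, followed with 10.3% of 643 cells (8.03 to 12.9). Fibrogenic progenitor-like and mitotic-like cells had 3.64% and 4.06%, with overlapping intervals, tenocyte-like cells 1.02% and distal mesenchyme-like cells 0.480%. *Lmx1b* had another order at E14.5, with 6.24% in distal mesenchyme-like cells (4.70 to 8.11), 4.56% in mitotic-like cells (3.23 to 6.23), 4.16% in fibrogenic progenitor-like cells (3.41 to 5.02) and 3.31% in dermal fibroblast-like cells (2.32 to 4.58), whose neighbours in this order overlapped. Within the fibrogenic progenitor-like class the 279 cells of cluster 14, whose leading genes include *Nefm* and *Gria2*, had *Lmx1b* in 12.2% (8.59 to 16.6), at 42.8 CPM, and *En1* in 0.717% (0.0869 to 2.57). Cluster 18, 1135 cells led by *Ephb1* and *Islr2*, held each gene in 0.0881% of cells (0.00223 to 0.490), the lowest shares among the clusters of 60 or more cells in this library, at a median depth of 11942 UMIs. The lead of distal mesenchyme-like cells rests on clusters, since cells given that class one by one from at least 3 detected markers had *Lmx1b* in 1.57%.

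In the clustering of the E16.5 segments, dermal fibroblast-like cells of the proximal library again led for *En1*, with 14.7% of 1149 thinned cells (12.7 to 16.9) and 57.7 CPM. They held 23.1% of the *En1* UMIs of the library with 10.3% of its cells, while mitotic-like cells held 24.5% and the class led by muscle fibre genes 18.9%. Fibrogenic progenitor-like cells had 7.71% (6.35 to 9.26), mitotic-like cells 7.42% (6.24 to 8.74), perichondrial-like cells 6.36% (3.52 to 10.4) and fibroblast-like cells 5.81% (4.08 to 7.99), and these neighbours overlapped. Pericyte-like cells had *En1* in 3.10% (1.66 to 5.23) and tenocyte-like cells in 1.93% (1.03 to 3.29). The keratinocytes of this library, an epithelial-like class of 937 cells with a median depth of 37708 UMIs, had 0.961% (0.440 to 1.82), and chondrocyte-like cells had 0.412% (0.112 to 1.05), which overlapped it. *Lmx1b* shares were between 0% and 1.87% in all classes of this library. The epithelial-like share of *Lmx1b* was 0.534% (0.173 to 1.24), and the dermal fibroblast-like (0.870%), tenocyte-like (1.04%), chondrocyte-like (0.722%), perichondrial-like (0.455%) and pericyte-like (0%) shares were within that range or under it. Mitotic-like cells with 1.87% (1.29 to 2.61) lay above it. By cluster, the highest proximal share of *Lmx1b* among clusters of 60 or more cells was 5.67% (3.13 to 9.33) in cluster 7, 247 cells led by *Rit2*, *Coch* and *Ednrb*.

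At E16.5 distal, dermal fibroblast-like cells had *En1* in 14.9% of 1841 thinned cells (13.3 to 16.6), at 69.2 CPM, and held 60.9% of the *En1* UMIs. Fibrogenic progenitor-like and mitotic-like cells followed with 8.28% and 8.20%. Within the mitotic-like class the 300 cells of cluster 1, led by histone genes, had *En1* in 20% (15.6 to 24.98), at 98.3 CPM. This cluster had all 8 mitotic and all 8 dermal fibroblast markers raised and none of either among its 10 leading genes, so its name was a tie between both classes. The 312 distal cells of mitotic-like cluster 0 had 2.24% (0.907 to 4.57). *Lmx1b* was found in 7.10% of 169 fibrogenic progenitor-like cells (3.72 to 12.1), 4.52% of 884 cells of cluster 19 (3.25 to 6.11), which met no list and was led by *Grin2a* and *Nefm*, and 4.13% of dermal fibroblast-like cells (3.27 to 5.14). The distal mesenchyme-like class was split for *Lmx1b*. Cluster 15, led by *Grp* and *Btc*, had 3.88% (2.75 to 5.31) and cluster 6, led by *Ephb1* and *Nkain3*, had 0.231% (0.0631 to 0.591). Both clusters were low in *En1*, with 0.420% and 0.347%.

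**Figure D2:**
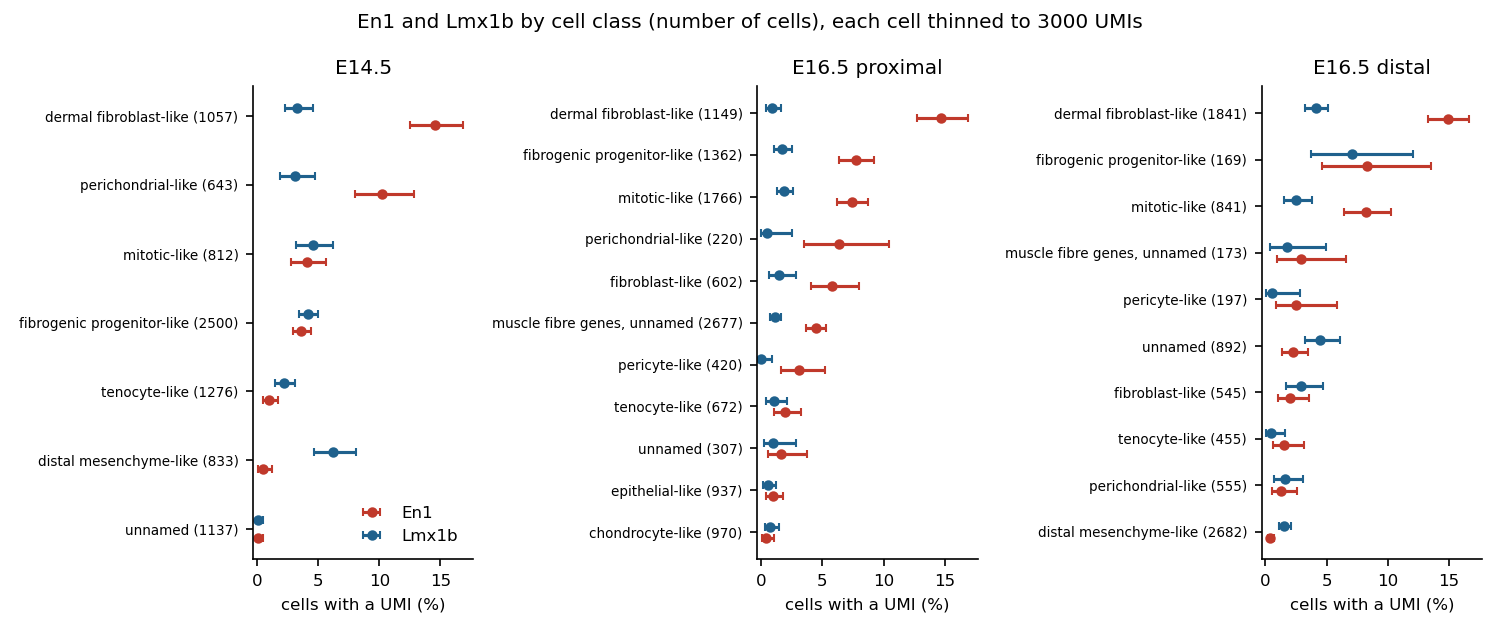
Share of cells with an *En1* UMI (red) or an *Lmx1b* UMI (blue), in percent of cells thinned to 3000 UMIs, by cell class in the 3 latest libraries. Classes with at least 100 cells are listed with their number of cells, and bars are exact 95% binomial intervals. Dermal fibroblast-like cells lead for *En1* with 14.6%, 14.7% and 14.9%, and *Lmx1b* is at most 1.87% in the proximal segment.

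Between the E16.5 segments *Lmx1b* was higher distally, 8.64 against 3.69 CPM and 2.63% (2.30 to 2.99) against 1.15% (0.962 to 1.37) of thinned cells, a difference of 1.48 percentage points. The CPM of *En1* was 21.9 distally and 20.3 proximally while its thinned share was 5.02% and 5.55%, so no order was read from it. These values cover all filtered cells, among them 937 epithelial-like cells proximally and 67 distally, with *En1* at 2.09 and 2.49 CPM. Class make-up differed, with 2682 distal mesenchyme-like cells in the distal and 27 in the proximal library, and so did the version of Cell Ranger used for counting. Within dermal fibroblast-like cells *Lmx1b* was in 4.13% of distal and 0.870% of proximal cells, and *En1* in 14.9% and 14.7%, with most distal cells in cluster 17 and most proximal ones in cluster 9. Within fibrogenic progenitor-like cells, all of cluster 11, *Lmx1b* was in 7.10% and 1.69%, and *En1* in 8.28% and 7.71%. In tenocyte-like cells *Lmx1b* went the other way, with 0.440% of distal (0.0533 to 1.58) and 1.04% of proximal cells (0.420 to 2.13), which overlapped. In fibroblast-like cells *En1* was in 2.02% of distal (1.01 to 3.58) and 5.81% of proximal cells (4.08 to 7.99), most of them in clusters 13 and 10. In perichondrial-like cells *En1* was in 1.26% (0.509 to 2.58) and 6.36% (3.52 to 10.4), with cluster 21 holding most of the distal and cluster 18 most of the proximal ones. With 1 library per segment these differences had no test.

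Detection of both genes in the same cell was rarer than independence would give in the sorted E11.5 library and more frequent at E16.5 distal. At full depth both were detected in 17, 14, 18, 199, 195 and 338 cells of the sorted libraries in order and in 3 and 13 cells of whole 1 and whole 2. Independence of both genes would give 34.5, 25.2, 12.03, 155, 171 and 153 cells, and 13.5 and 12.99. At E11.5 the share of cells with an *En1* UMI was 2.24% among those with *Lmx1b* (1.31 to 3.56) and 5.28% among those without (4.42 to 6.25). At E12.5 it was 2.31% (1.27 to 3.85) against 4.43% (3.82 to 5.11), with intervals that just overlapped. At E13.5 it was 4.01% (2.39 to 6.26) against 2.57% (2.18 to 3.02), with overlapping intervals. In whole 1 it was 0.478% (0.0988 to 1.39) against 2.38% (1.97 to 2.85), and in whole 2 it was 1.97% on both sides. Whole 1 and whole 2 thus did not share the deficit.

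At E14.5 the share with *En1* was 16.8% among cells with *Lmx1b* (14.7 to 19.0) and 12.5% among those without (11.7 to 13.3). At E16.5 proximal the shares were 25.2% (22.2 to 28.4) and 21.9% (21.1 to 22.7), which overlapped. At E16.5 distal they were 33.7% (30.8 to 36.7) and 12.8% (12.04 to 13.6). With the cells without *Lmx1b* weighted to the clusters of those with it, the second value at E16.5 distal was 19.998%, and it was 14.3% for E14.5 and 23.5% for the proximal segment. Cells with both were deeper than cells with neither, with a median of 19454 against 16922 UMIs at E16.5 distal, and 11.8% against 5.13% of them were among the highest doublet scores. With the highest doublet scores left out, the thinned difference in *En1* share at E16.5 distal was 7.06 percentage points against 6.87 with them, and at E11.5 it was -2.10 against -2.13. After thinning, both genes were seen in 1, 0, 4, 21, 8 and 26 cells of the sorted libraries and in 0 and 3 of whole 1 and whole 2, against 6.41, 3.27, 2.66, 12.1, 7.11 and 11.1, and 2.26 and 2.95, under independence. The thinned share with *En1* at E16.5 distal was 11.7% (7.79 to 16.7) with *Lmx1b* and 4.84% (4.39 to 5.33) without. Weighted to the clusters of the cells with *Lmx1b*, the second value was 7.70%.

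**Figure D3:**
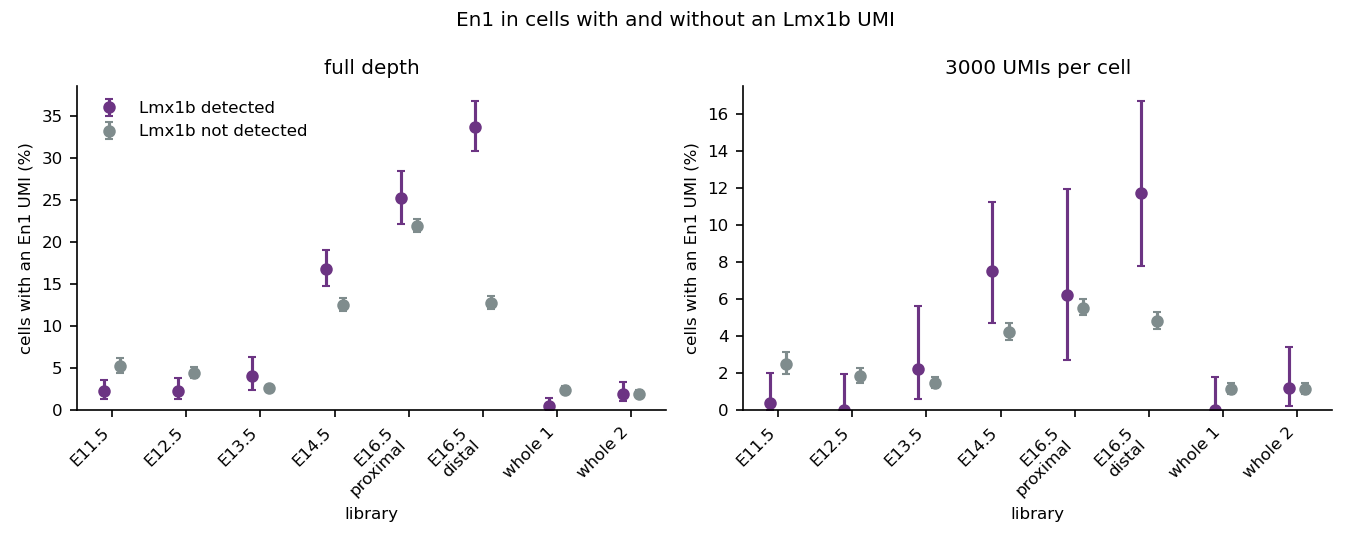
Share of cells with an *En1* UMI, in percent, among cells with (purple) and without (grey) an *Lmx1b* UMI in each library, at full depth (left) and after thinning to 3000 UMIs (right). Bars are exact 95% binomial intervals. At full depth the purple point lies below the grey one at E11.5 (2.24% against 5.28%) and above it at E16.5 distal (33.7% against 12.8%).

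At full depth, the excess at E16.5 distal lay partly between and partly within clusters. Depth was not made equal within clusters for the counts that follow. Independence over the library gave 153 cells with both and independence within each cluster 228, against 338 counted. Cluster 17, the main dermal fibroblast-like cluster of the distal segment (1461 cells, whose leading genes include *Sp9* and *Pax1*), had both genes in 171 cells where independence within the cluster gives 115. In it *En1* was detected in 60.0% of cells with *Lmx1b* (54.1 to 65.7) and in 35.5% of those without (32.7 to 38.3). The distal cells of cluster 1, the one tied between the mitotic and dermal fibroblast lists, had both in 67 cells against 44.2, with 78.8% (68.6 to 86.9) and 41.4% (34.7 to 48.3). The proximal dermal fibroblast-like cluster 9 had 22 against 22.5 cells, with 40.0% (27.0 to 54.1) and 41.0% (38.0 to 44.1). The E14.5 dermal fibroblast-like cluster 8 had 63 against 71.8 cells, with 34.2% (27.4 to 41.6) and 40.0% (36.7 to 43.3). At E11.5 mitotic-like cluster 0 of the time course had 7 against 20.01 cells. The early mesenchymal progenitor-like clusters 1 and 2 had 5 against 7.52 and 5 against 6.49. Their intervals with and without *Lmx1b* overlapped, with 3.68% (1.20 to 8.37) and 5.83% (4.35 to 7.64) in cluster 1. In cluster 2 the shares were 2.30% (0.752 to 5.29) and 3.23% (1.98 to 4.95), so the deficit lay mostly in cluster 0.

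Within libraries, cells with an *En1* UMI were set against cells without one, the latter weighted to the same clusters, and genes were ranked by their mean log2 ratio of CPM + 5 over all 8 libraries. Of 4107 genes at 20 CPM or more outside epithelial-like clusters, 65 were higher (1.58%) and 41 lower (0.998%) with *En1* in 8 of 8 libraries. The level was asked of the cells with *En1*, so a gene could pass through being high in them. With the level set over all cells instead, an alternative chosen after the data were seen, 66 (1.57%) and 45 (1.07%) of 4194 genes were higher and lower, and 6 of the 6 highest and 5 of the 6 lowest genes remained. Only genes at the level with the same direction in every library were named. The highest mean among them was that of *Twist2*, a dermal fibroblast factor gene, at 0.52 (0.05 to 0.90). *Twist2* is also 1 of the markers behind the dermal fibroblast-like class, and without the weighting its mean was 1.13. It was at 184 CPM in cells with *En1* and 95.9 in cells without at E11.5, 476 and 373 at E16.5 distal, and 152 and 147 at E16.5 proximal, where the difference was smallest. *Bcl11b* (0.39), a zinc-finger factor gene of skin and T cells, *Pth1r* (0.30), the parathyroid hormone receptor gene, *Sgk1* (0.30), *Mgst3* (0.27) and *Igf1* (0.27), a growth factor gene, followed. The lowest were the cartilage genes *Col2a1* (-0.59) and *Sox9* (-0.46), with *Hand2* (-0.54), *Socs2* (-0.41), *Osr2* (-0.39), a limb and joint factor gene, and *Ebf1* (-0.37). *Col2a1* and *Sox9* are among the markers behind the chondrocyte-like class. *Hand2* was lower in every library, with log2 ratios from -0.78 to -0.36. *Lmx1b* itself differed between libraries, with a mean of -0.30 and a range from -1.50 in whole 1 to 0.74 at E16.5 distal.

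Cells with an *Lmx1b* UMI were compared in the same way. Of 4147 genes, 81 were higher (1.95%) and 60 lower (1.45%) with *Lmx1b* in 8 of 8 libraries. With the level set over all cells, 76 (1.81%) and 70 (1.67%) of 4194 were, and 5 of the 6 highest and 3 of the 6 lowest genes remained. Among genes at the level and higher in every library, *Nrp2*, a receptor gene for semaphorins and VEGF, had the highest mean, 0.46 (0.17 to 1.15). It was at 245 CPM in cells with *Lmx1b* and 107 in cells without in whole 1, and at 226 and 114 in whole 2. Then came *Lum* (0.35), the zinc-finger factor genes *Zfhx4* (0.34) and *Zfp503* (0.31), *Tox3* (0.31) and *Cped1* (0.27). At E16.5 proximal *Tox3* passed the level only in cells with *Lmx1b*, with 22.4 CPM against 13.7 in cells without. *Col9a1*, a cartilage collagen gene and a marker behind the chondrocyte-like class, was the lowest at -0.66 (-1.08 to -0.25). It was followed by *Ptn* (-0.26), *Mpped2* (-0.24), *Bambi* (-0.21), a BMP pseudoreceptor gene, *Cpe* (-0.20) and *Ugdh* (-0.14). *En1* had a mean of -0.34 in cells with *Lmx1b*, from -1.30 at E11.5 to 0.63 at E16.5 distal. Without the weighting to clusters, 3 of the 6 highest genes remained for *En1* and 1 of 6 for *Lmx1b*, and 3 of the 6 lowest remained for both. With detection after thinning, which left 3 libraries for *En1*, 1 of the 6 highest and 2 of the 6 lowest remained for *En1*, and 2 and 0 for *Lmx1b*. The mean of *Twist2* was then 0.25 and that of *Igf1* 0.06, and the sign of the mean was the same for all 12 genes of each member under both settings.

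**Figure D4:**
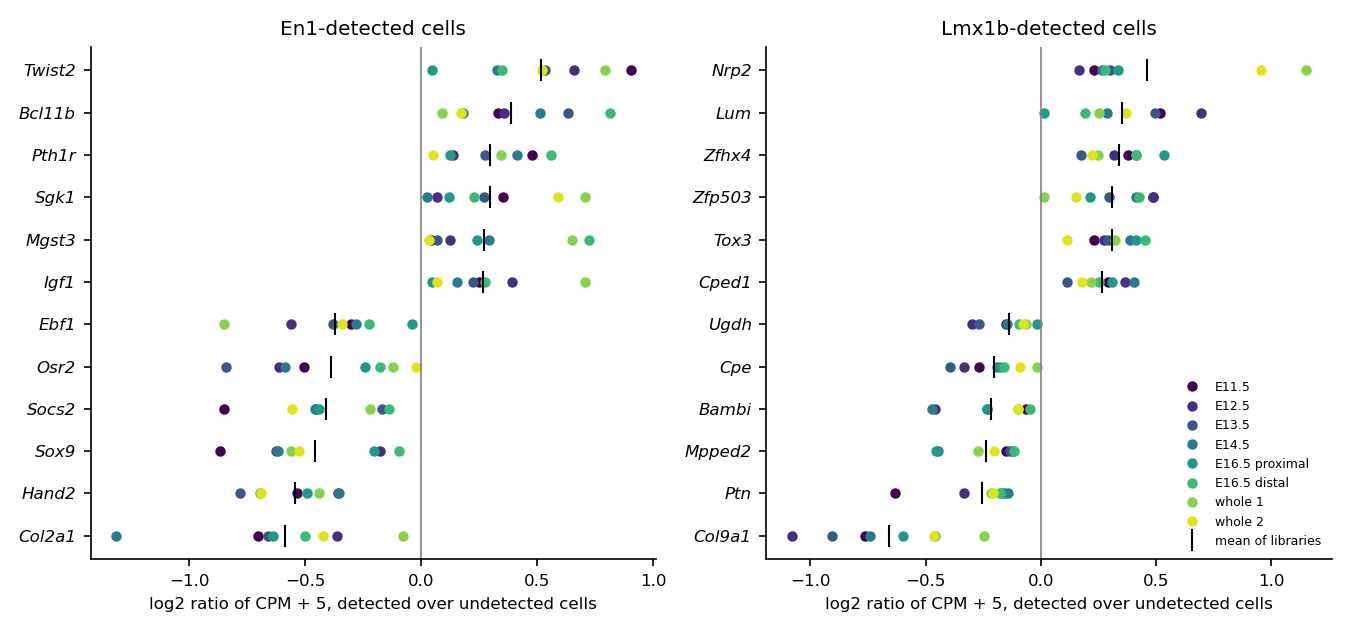
Log2 ratio of CPM + 5 in cells with an *En1* UMI (left) or an *Lmx1b* UMI (right) over cells without, by gene, with 1 point per library and the mean as a black bar. *Twist2* lies above 0 with *En1* in all 8 libraries (mean 0.52) and *Nrp2* with *Lmx1b* (mean 0.46), whereas *Hand2* lies below 0 with *En1* (mean -0.54).

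Of 43 pathway genes, 18 reached 20 CPM in cells with *Lmx1b* of every library, and 3 of these were higher with *Lmx1b* in 8 of 8 libraries, as were 1.95% of the 4147 genes at that level. The counts of pathway genes were also 18 and 3 with the level set over all cells (1.81% of 4194 genes), and nothing is read from them, since the list was chosen with earlier results known. They are *Lum* (mean log2 ratio 0.35), the LIM cofactor gene *Ldb2* (0.21) and the mesenchymal factor gene *Twist1* (0.14). Below that level *Kera* (0.52), *Ntn1* (0.34) and the Wnt target *Axin2* (0.18) were also higher in 8 of 8. *Dcn* (0.23) was higher in 6 libraries, and *Gdf5* (0.13) and *Epha4* (0.02, from -0.42 to 0.21) in 5. The other Wnt response genes went from *Nkd2* (0.22) and *Wif1* (0.21), higher in 7 libraries, to *Rspo1* (-0.15), higher in 1. *Lhx2*, also below the level, was lower with *Lmx1b* in 8 of 8 libraries (-0.38), and 1.45% of all genes at the level were. With *En1*, *Twist2* was higher in 8 of 8 libraries, 1 of 17 pathway genes at the level (1.58% of all genes were), *Bmp4* (0.37), which encodes a BMP ligand, and *Fgf8* (0.41) in 7 of 8, and *Rspo1* (0.83), a Wnt agonist of the early dermis and 1 of the markers behind the dermal fibroblast-like class, in 6 of 8. Other early dermis genes were mixed, with *Lrig1* (0.14) and *Dpp4* (0.12) higher in 6, *Crabp1* (0.06) and *Twist1* (-0.03) in 5, *Pdgfra* (0.07) in 4 and *Dlk1* (0.03) in 3. So were those of the Wnt response, with *Lef1* (0.31) and *Wif1* (0.13) higher in 6, *Axin2* (-0.15) in 4, *Notum* (-0.21) in 3 and *Tcf7* (-0.22) in 2. *Epha4* (-0.32) was higher with *En1* in 1 of 8 libraries and *Gdf5* (-0.19) in 1 of 8. Genes at low levels are drawn toward 0 on this scale, and cells of 1 library are not replicates, so no test was made.

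Over 46 sums of UMIs, each of 1 cell class in 1 library, the gene most like *Lmx1b* was its divergent neighbour C130021I20Rik. Likeness was Pearson's r of log2(CPM + 1) over the sums, which share libraries and depth, among 8011 genes. For *Lmx1b* r was 0.936 with C130021I20Rik, 0.789 with *Hand2*, a posterior limb bud factor gene, 0.776 with *Lpar1*, a lysophosphatidic acid receptor gene, 0.757 with *Ror2*, a Wnt receptor gene, and 0.719 with *Cped1*. For *En1* r was 0.755 with *Lum*, 0.744 with *Cnrip1*, 0.741 with *Rpl39l*, 0.735 with *Cdo1*, a cysteine dioxygenase gene, and 0.728 with *C2*, a complement gene. Of these, the highest sum was in dermal fibroblast-like cells for each, at 2557 CPM for *Lum* and 266 CPM for *Cdo1*. Between *En1* and *Lmx1b* themselves r was 0.171.

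Like *Lmx1b*, C130021I20Rik was highest at E11.5 and lowest at E16.5 proximal, with 40.8, 34.3 and 32.1 CPM on days E11.5 to E13.5, 18.1 CPM on day E14.5, and 4.41 proximal and 9.91 distal CPM on day E16.5, and 20.4 and 23.6 CPM in whole 1 and whole 2. In the E11.5 test it was higher in sorted cells by 0.61 ± 0.12 (SE) on the log2 scale, with an edgeR adjusted p of 3.2e-06. The share of cells with a C130021I20Rik UMI was 44.7% among cells with *Lmx1b* and 22.9% among those without at E11.5. E12.5 had 48.7% and 19.1%, E13.5 had 39.6% and 16.2%, and E14.5 had 44.3% and 15.95%. In the E16.5 segments the pairs were 23.3% and 7.07% proximally and 43.5% and 9.19% distally. In whole 1 they were 37.0% and 12.1%, and in whole 2 they were 34.3% and 14.4%. No interval of a pair overlapped in any of the 8 libraries. In cells of 6000 to 15000 UMIs, a range chosen after seeing the data to hold depth closer, the pairs still differed in the same direction, from 42.7% and 24.2% at E11.5 to 15.1% and 5.13% proximally and 30.1% and 8.13% distally at E16.5. Cells with *En1* had the RNA in 14.6% at E11.5 (9.26 to 21.4) against 28.8% of cells without *En1* (27.2 to 30.4), and in 32.9% (30.3 to 35.5) against 9.72% (9.05 to 10.4) at E16.5 distal. The annotated spans of both genes lie 681 bases apart on opposite strands and do not overlap, and whether the counting used strand is not given in the sources used here.

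**Figure D5:**
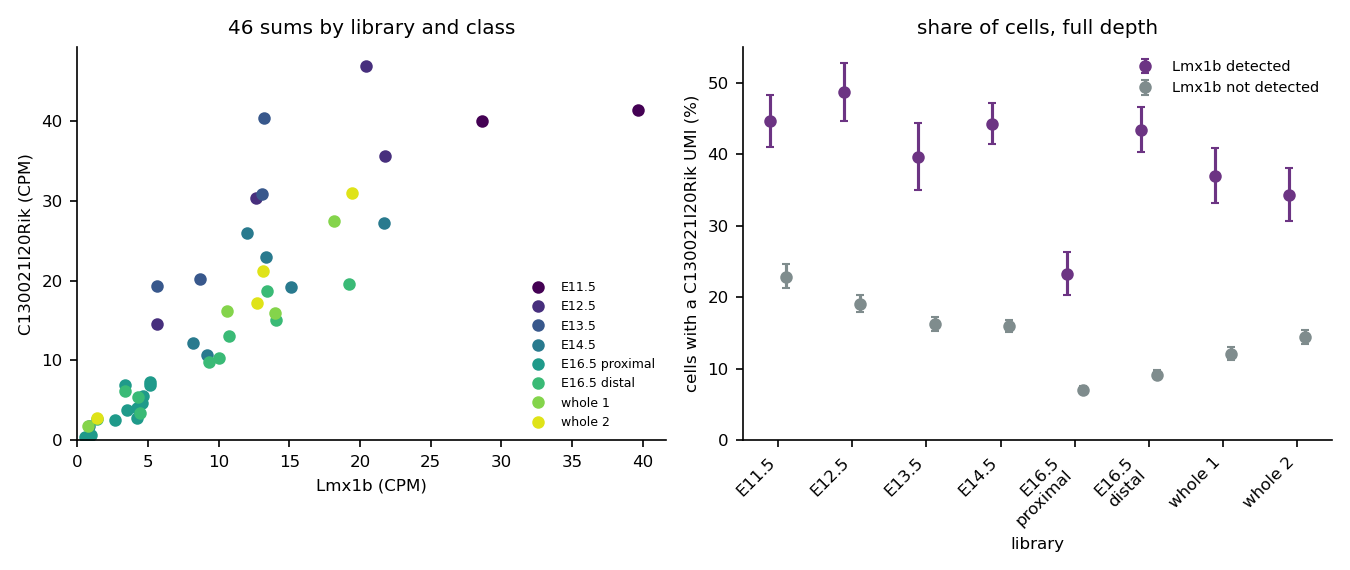
Left, C130021I20Rik against *Lmx1b*, both in CPM, in 46 sums of cells of 1 class in 1 library. Right, the share of cells with a C130021I20Rik UMI, in percent, among cells with (purple) and without (grey) an *Lmx1b* UMI at full depth, with exact 95% binomial intervals. The purple point lies above the grey one in all 8 libraries, from 23.3% against 7.07% at E16.5 proximal to 48.7% against 19.1% at E12.5.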

How the data were processed

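Forelimb cells of 8 libraries were profiled by 10x single-cell RNA-sequencing. The authors aligned reads to a modified mm10 genome and counted UMIs with Cell Ranger (3.0.2 in 5 file headers, 6.0.1 in 1, none in 2), and deposited raw counts per gene and barcode, which were used as they stand. Samples were grouped by the labels. Cells with at least 3000 UMIs and at most 10% mitochondrial UMIs were kept (74.2% to 98.6% of barcodes). For shares, each cell was thinned to 3000 UMIs. Intervals are exact (Clopper-Pearson or Poisson, 95%) and cover counting error only, and a count of 0 was given a limit of 3 counts.

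Cells were clustered in scanpy 1.11.5 (2000 variable genes, 50 components, 25 neighbours, Leiden resolution 1) in 3 sets. A cluster was named X-like from at least 3 markers raised by a log2 fold of 1 or more and detected in 10% of its cells. The automatic threshold for doublet scores called between 0 and 296 cells per library, so an alternative left out the highest scores instead, 76 to 968 cells.

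Sums of mesenchymal counts at E11.5 were tested with edgeR 4.0.16 (quasi-likelihood, TMM, Benjamini-Hochberg over all genes), with DESeq2 1.42.0 as an alternative. Both fits were tested on simulated data. Named genes were the members, lists by role, the 5 most like each member (genes at 20 CPM or more in at least 3 sums) and the 6 highest and 6 lowest within libraries, without mitochondrial, haemoglobin, transgene and sex-linked genes. Members, lists and rules were chosen with earlier results of these data known. Alternatives changed the thinning, the filters, the scaling, doublets, cluster resolution, the naming of classes and the weighting. Sequences came from RefSeq (GRCm38.p6) and positions from GENCODE vM21.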

Additional observations from a re-analysis of the deposited data

Results flagged for a closer look

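The difference in the share of cells with an *En1* UMI between cells with and without an *Lmx1b* UMI, at full depth, had opposite signs along the sorted libraries. It was -3.04 percentage points at E11.5 and -2.12 at E12.5, and 1.44 for E13.5, 4.30 for E14.5, and 3.27 proximally and 20.9 distally for E16.5. The difference between these libraries was not tested, since each stage is 1 library. The intervals of the E12.5, E13.5 and E16.5 proximal pairs overlapped.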

How the results depend on the processing

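In the E11.5 comparison both genes stayed higher in sorted cells and past the threshold under every alternative run, with log2 fold changes of 1.11 to 1.29 for *En1* and 0.886 to 1.01 for *Lmx1b*. With 1 whole limb library left out, the values, without a test, were 1.23 to 1.34 and 0.854 to 0.931. The number of genes called was 4863 with DESeq2 and 4518 without a filter on low counts, against 8023. No paired analysis was possible because the sorted group is 1 library.

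The distal minus proximal share of *En1* at E16.5 (-0.535 percentage points) was -6.88 without thinning, -1.26 with another random draw, -1.89 at 6000 UMIs and -1.79 when at least 2 UMIs were asked for. That of *Lmx1b* (1.48) was 4.91, 2.33 and 2.35 without thinning, at 6000 UMIs and with at least 2 UMIs. The difference in *En1* share between cells with and without *Lmx1b* was, without thinning, -3.04 at E11.5 (thinned -2.13), 20.9 at E16.5 distal (6.87) and -1.90 in whole 1 (-1.16). With at least 2 UMIs it was 0.148 at E14.5 (3.29) and 13.98 at E16.5 distal. None of these differences changed sign under the alternatives run, whereas the order of *En1* and *Lmx1b* shares at E14.5 turned with thinning. By CPM over all filtered cells *En1* was higher distally (21.9 against 20.3) where its share was lower. Outside epithelial-like clusters, 2 *En1* CPM values left their main interval and 6 stayed in it, and no order between the segments is read from CPM. Genes higher and lower with *En1* in every library numbered 65 and 41, without weighting 100 and 91, and after thinning, with 3 libraries, 813 and 565. Those with *Lmx1b* numbered 81 and 60, and 239 and 142 without weighting. With classes given cell by cell from at least 3 markers, 8 *En1* shares by class left their main interval and 13 stayed in it. At cluster resolution 2 these numbers were 7 and 22. For *Lmx1b* they were 5 and 16, and 3 and 26. Depth, the kit and the stage changed together, the dissociation enzymes changed after E12.5, and between the segments the version of Cell Ranger differed. These cannot be told apart from stage or segment.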
